A study of Mus musculus with 23 samples.

Results

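Endocannabinoid signaling in the mouse brain was described through 8 genes: the cannabinoid receptors Cnr1 and Cnr2, the enzymes that make endocannabinoids (Dagla, Daglb and Napepld) and the enzymes that break them down (Faah, Mgll and Abhd6). They were found by their gene symbols in the array annotation. All 8 were measured, by 12 probes that make up 9 of the 31395 transcripts of the deposited log2 table, Mgll having 2 of these transcripts. The samples came from female C57BL/6 mice, 5 weeks old at the start. The SC mice (labeled lean) received standard chow for 8 weeks, and the CM mice (labeled obese) had a free choice of chow and a chocolate mixture for the same 8 weeks. Both diets ended with a test battery of 11 days, during which the SC mice also had limited access to chocolate mixture. RNA of 3 regions of each mouse, namely the hypothalamus (HT), the striatum (ST) and the frontal cortex (FC), was hybridized to one-color Agilent arrays, 1 array per mouse and region. Of the 23 arrays, 4 were from each diet and region except CM FC, with 3 (mice O54, O56 and O58). The tissue label of the HT arrays reads thalamic, whereas their treatment protocol and the paper read hypothalamus.

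Endocannabinoids are lipid messengers that a neuron makes on demand and releases back onto the terminals that contact it. There the Gi/o-coupled receptor CB1, encoded by Cnr1, lowers transmitter release, and the related receptor CB2, encoded by Cnr2, is best known from immune cells. The main endocannabinoids are 2-arachidonoylglycerol (2-AG) and anandamide. The diacylglycerol lipases DAGLα and DAGLβ, encoded by Dagla and Daglb, form 2-AG, which monoacylglycerol lipase (Mgll) removes for the most part and ABHD6 (Abhd6) in smaller measure. Napepld encodes a phospholipase D that releases anandamide and other N-acylethanolamines from membrane precursors, and fatty acid amide hydrolase (Faah) degrades them. Across the brain, CB1 is abundant in the striatum and cortex and acts on feeding and reward.

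Each value rests on the probes of 60 bases that the array carries for a gene, so the probes on which the results turn are shown by their first 30 bases, 5′ to 3′, in the array's mouse mm9 coordinates. The receptors have 1 probe each, that of Cnr1 at chr4:34035526-34035585 and that of Cnr2 at chr4:135476052-135476111, both on the plus strand. These are the probes of the gene with the largest regional range and of the gene whose values separated slide 1 from the other slides.
Cnr1: ctggtagcatcattgagactgctgtgatgt
Cnr2: ccctcttctggtatgtttgaagagagcgat

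Mgll has 4 probes on the plus strand of chromosome 6, which are shown because they belong to different transcripts of the gene. The first pair, at chr6:88714636-88714695 and chr6:88716266-88716325, is assigned to NM_001166250. The other pair, at chr6:88775976-88776035 and chr6:88778292-88778351, is assigned to NM_001166251 and starts 59710 bases further on.
Mgll A_55_P2063312: tatgatgagctggctcatatgttgaagggg
Mgll A_55_P2063311: atttgtgagacttatttggcagataatatt
Mgll A_55_P2114863: ctttatgaaggagggagtatattttctaca
Mgll A_55_P2063316: aattactaaagaagccaatgtgcactacag

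Abhd6 has 2 probes 887 bases apart on chromosome 14 (plus strand), at chr14:8888116-8888175 and chr14:8889003-8889062, which are shown because they differed in direction.
Abhd6 A_55_P2029366: tttagcttctgtgcataacacagacaacaa
Abhd6 A_55_P1984675: gactgggaaggtgctctaggaatgatttac

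The remaining genes have 1 probe each, Faah at chr4:115669624-115669683 and Napepld at chr5:21168862-21168921 on the minus strand, Dagla at chr19:10319766-10319825 on the minus strand and Daglb at chr5:144264931-144264990 on the plus strand. Whether a probe lies in a coding or an untranslated part is not given in the sources used here.

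Between 36432 and 42261 of 59305 spots were well above background per array, and none was saturated. For each of the 8 genes the transcript reported was well above background on all 23 arrays. The arrays lay on 3 slides. Slide 1 held the 4 CM ST arrays, 3 SC FC arrays and 1 SC ST array (mouse L52), slide 2 the 4 CM HT arrays, 2 SC ST arrays (L54 and L56), the SC FC array of L52 and the SC HT array of L58, and slide 3 the 3 CM FC arrays, 3 SC HT arrays and 1 SC ST array (L58). No slide held FC arrays of both diets, so every diet difference in FC is also a difference between slides. All 6 striatal markers were highest in ST, all 5 cortical markers in FC and all 8 hypothalamic and all 4 thalamic markers in HT, so HT carried markers of both structures. Hcrt, the orexin precursor of the lateral hypothalamus, lay between 13.05 and 16.73 (log2) in HT and between 7.46 and 10.10 in FC. Some ST arrays stood apart. Among the SC arrays, L52 had Hcrt at 15.45, within the HT range, and L54 and L58 had Slc17a7, the vesicular glutamate transporter of cortical excitatory neurons, at 11.68 and 12.05, whereas the other ST arrays had 8.01 to 10.56 and the FC arrays 11.82 to 12.40. The CM array of O58 had Ttr, the transthyretin of the choroid plexus, at 18.21, whereas the other ST arrays had 10.61 to 14.16, and it also had the lowest Slc17a7 of ST, 8.01. In tissue RNA, fewer cells of a type and less RNA per cell cannot be told apart.

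**Figure D1:**
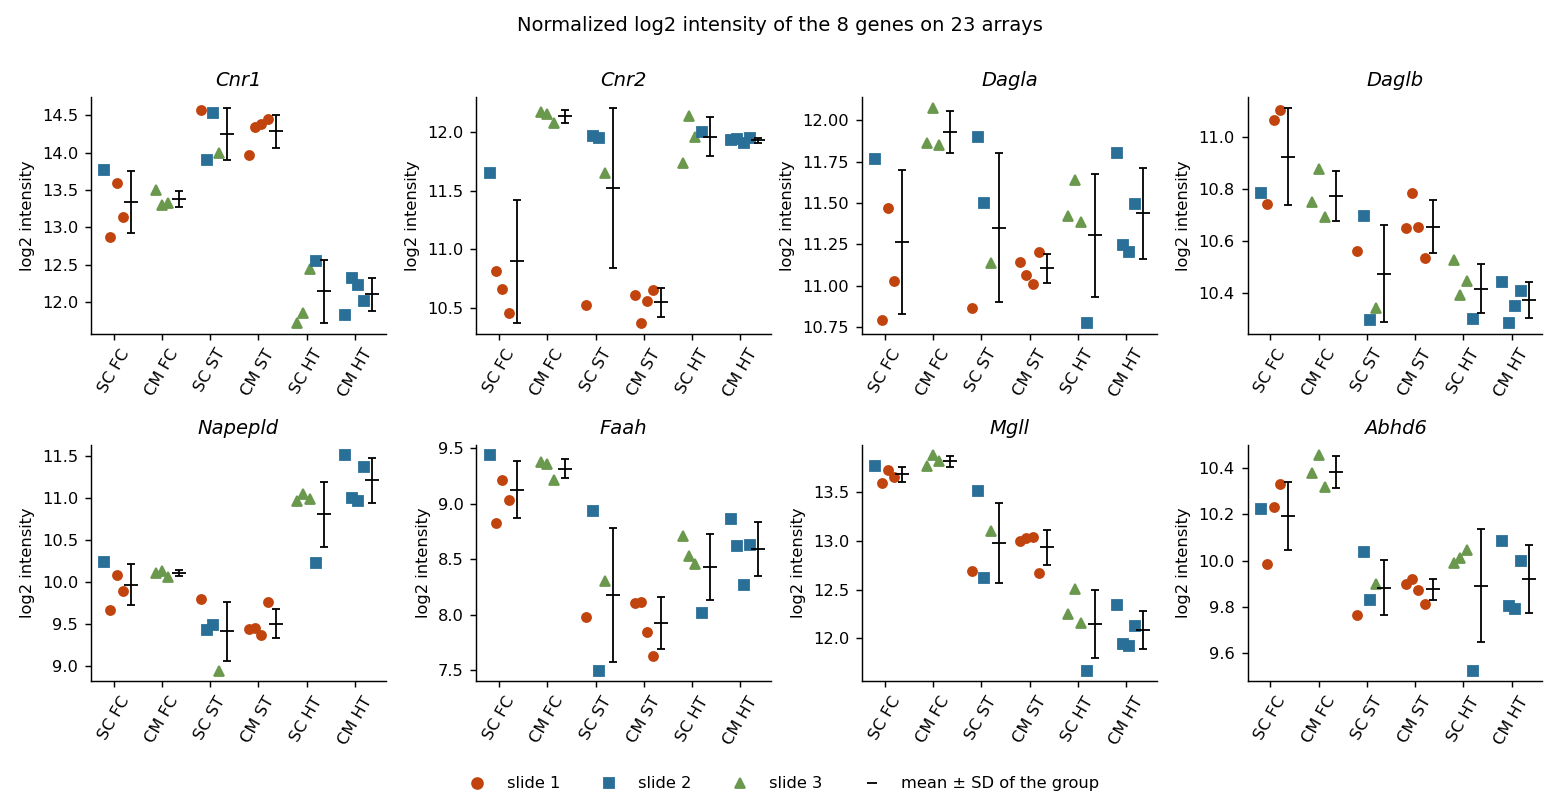
Log2 value of each gene (y axis, 1 panel per gene) on every array by region and diet (x axis), with the color and shape of a point giving its slide and the bar the mean ± SD of the group. Cnr1 and Mgll separate by region without overlap. Napepld is highest in HT but its ranges overlap, at 10.22 to 11.51 in HT, 9.67 to 10.23 in FC and 8.94 to 9.80 in ST. The Cnr2 values of slide 1 lie at 10.37 to 10.82 in FC and ST and all others at 11.65 or above.

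The regional comparisons held the larger differences. Within SC mice, limma called 5 of the 8 genes in ST against FC (adjusted p under 0.05 over all transcripts), of which 2 were higher and 3 lower in ST, where 14.9% of all transcripts were called. In HT against FC it called 6 genes, 2 higher and 4 lower, where 43.2% of all transcripts were called, and in HT against ST 3 genes, 1 higher and 2 lower, where 21.5% were called. Within CM mice, 7 genes were called in ST against FC (1 higher, 6 lower; 60.6% of all transcripts), 7 in HT against FC (1 higher, 6 lower; 57.8%) and 6 in HT against ST (3 higher, 3 lower; 56.3%). The share of genes called was thus above that of all transcripts in SC mice, and in CM mice more than every second transcript was called too. The median log2 difference of the 8 genes was -0.41 in ST against FC and -0.41 in HT against FC within SC mice, and -0.74 and -0.53 within CM mice, where the median of all transcripts was between 0.00 and 0.02.

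In a fit with a fixed term for each slide (the slide block), the genes called within SC mice numbered 5 for ST against FC (10.9% of all transcripts), 1 for HT against FC (14.8%) and 3 for HT against ST (15%). Within CM mice, whose regions each lay on a slide of their own, they numbered 0 for ST against FC (3.17%), with 1 at an unadjusted p under 0.05, 3 for HT against FC (16%) and 3 for HT against ST (19.4%). The slide terms came from the SC arrays alone, since each CM group lay on 1 slide. Block differences within CM mice thus assume the same slide effect in SC and CM mice. Of 41 member differences called without the block, 14 were also called with it. These 14 were all regional, and 12 of them were of Cnr1, Mgll and Napepld. Cnr2, with 8 differences called without the block, had 0 with it.

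**Figure D2:**
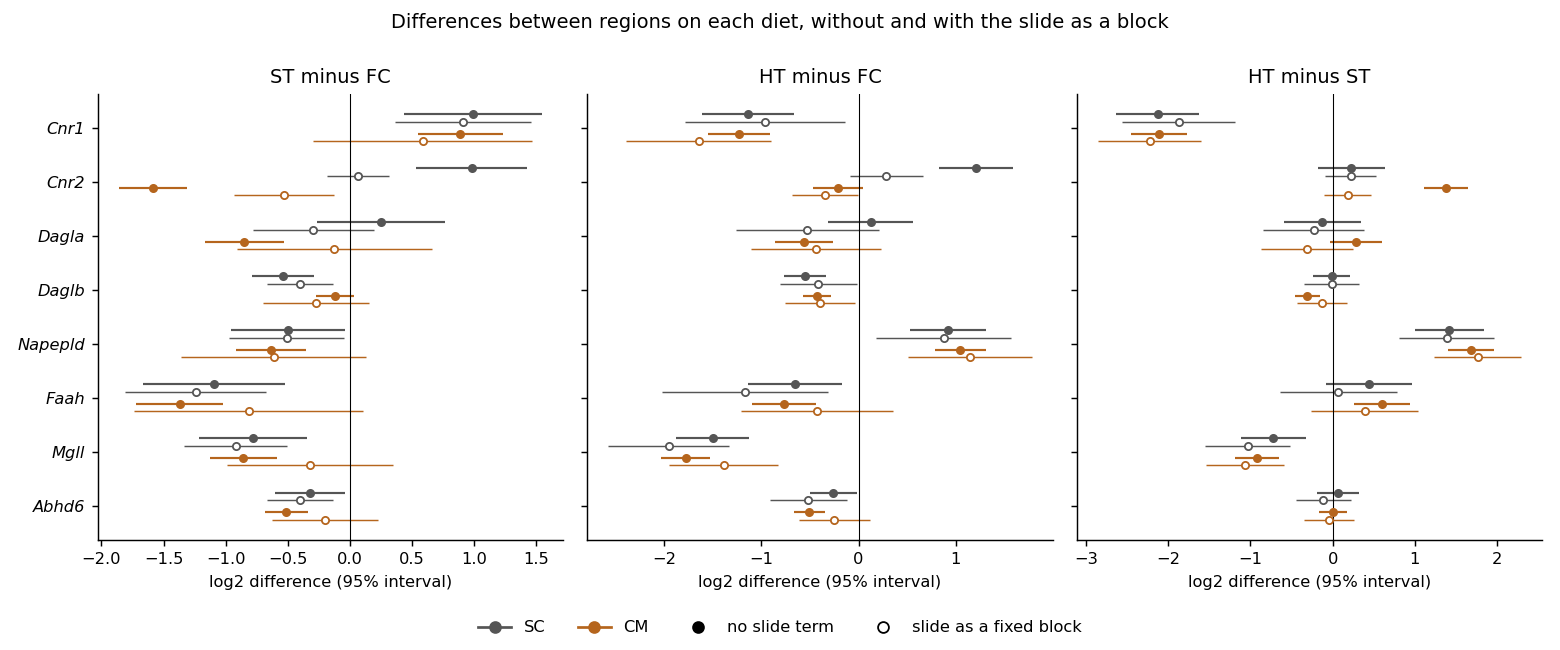
Regional log2 difference of each gene (x axis, bars are 95% intervals) within SC and CM mice, without the slide block (filled) and with it (open). Cnr1 was lower in HT than in ST and Mgll lower in HT than in FC in both fits, whereas the 4 Cnr2 differences called without the block moved toward 0 with it and that of HT against FC in CM mice moved from -0.21 to -0.35.

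Cnr1, the receptor of most endocannabinoid actions in the brain, was highest in ST, intermediate in FC and lowest in HT. In ST, its log2 values were 14.57, 13.90, 14.53 and 13.998 on the SC arrays (mice L52, L54, L56 and L58) and 13.97, 14.34, 14.39 and 14.45 on the CM arrays (O52, O54, O56 and O58). In FC they were 13.77, 12.87, 13.59 and 13.14 on the SC arrays and 13.50, 13.30 and 13.32 on the CM arrays (O54, O56 and O58). In HT they were 11.72, 11.85, 12.45 and 12.55 on the SC arrays and 11.83, 12.33, 12.23 and 12.02 on the CM arrays. The lowest ST array lay above every FC array and the lowest FC array above every HT array, while the diets overlapped within each region. The means were 14.27 ± 0.27 in ST (SD, n = 8), 13.36 ± 0.30 in FC (n = 7) and 12.12 ± 0.31 in HT (n = 8).

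Cnr1 fell by 2.13 ± 0.24 (SE) on the log2 scale from ST to HT in SC mice (4.37-fold, adjusted p = 2.56e-06) and by 2.11 ± 0.16 in CM mice (4.33-fold, adjusted p = 1.22e-09). With the slide block these differences were -1.87 (adjusted p = 0.000726) and -2.23 (adjusted p = 4.03e-05). It was 0.99 ± 0.27 higher in ST than in FC in SC mice (adjusted p = 0.0174) and 0.89 ± 0.16 higher in CM mice (adjusted p = 0.000109). With the block the former kept its call (0.91, adjusted p = 0.0303) and the latter did not (0.58, adjusted p = 0.526). The SC difference missed the threshold when the ST array of L56 (0.64, adjusted p = 0.179) or the FC array of L54 (0.84, adjusted p = 0.0522) or L58 (0.84, adjusted p = 0.0558) was left out. From FC to HT, Cnr1 fell by 1.14 ± 0.23 in SC mice (adjusted p = 0.000492) and by 1.23 ± 0.15 in CM mice (adjusted p = 9.53e-07). The block gave -0.96 (adjusted p = 0.112) and -1.64 (adjusted p = 0.00399).

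No diet difference of Cnr1 was detected. CM differed from SC mice by 0.05 (95% interval -0.38 to 0.48) in FC, by -0.06 (-0.53 to 0.42) in ST and by -0.04 (-0.40 to 0.32) in HT. These intervals, from the fit without the slide block, leave room for differences of up to about 0.5 on the log2 scale. With the block the intervals were wider. The differences were 0.29 (-0.57 to 1.15) in FC, -0.04 (-0.63 to 0.56) in ST and -0.39 (-1.11 to 0.33) in HT, none of them called.

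Cnr2 was the gene with the largest diet differences, in opposite directions in FC and ST. It was also the only one of the 8 whose values separated slide 1 from the other slides without overlap. In FC its log2 values were 11.65, 10.82, 10.66 and 10.46 on the SC arrays (L52, L54, L56 and L58) and 12.17, 12.15 and 12.07 on the CM arrays. In ST they were 10.53, 11.97, 11.95 and 11.65 on the SC arrays and 10.61, 10.37, 10.56 and 10.66 on the CM arrays. In HT they were 11.74, 12.14, 11.96 and 12.002 on the SC arrays and 11.93, 11.94, 11.90 and 11.95 on the CM arrays. Every CM FC array was above every SC FC array, the diets overlapped in ST through the SC array of L52, and all HT arrays lay close together.

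In CM mice Cnr2 was 1.38 ± 0.16 higher in FC (2.60-fold, adjusted p = 3.17e-05), fell by 1.19 ± 0.18 in ST (2.28-fold, adjusted p = 0.00398) and differed by -0.04 ± 0.14 in HT (adjusted p = 0.941). The diet effects in ST and FC differed by -2.57 ± 0.25 (interaction contrast, adjusted p = 1.13e-05) and those in HT and FC by -1.42 ± 0.22 (adjusted p = 0.00019). The diet effects in HT and ST differed by 1.15 ± 0.23, at an adjusted p of 0.0503. With the slide as a fixed block this last difference was -0.03 (adjusted p = 0.99995), and with the slide as a random block 0.79 (adjusted p = 0.694). The ST diet call was lost without array weights (-0.97, adjusted p = 0.0527) and with only the compared arrays fitted (-1.18, adjusted p = 0.0673).

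Sorted by slide, the 8 arrays of slide 1 had Cnr2 between 10.37 and 10.82, and the other 15 arrays had it between 11.65 and 12.17, across all regions and both diets. This split was looked for after the values had been seen. Among all transcripts, 1863 (5.93%) separated slide 1 from the rest without overlap, 1636 of them (5.21%) with the lower values on slide 1 as for Cnr2. The SC FC array of L52, the 1 SC FC array not on slide 1, was at 11.65 and the other 3 at 10.46 to 10.82. The SC ST array of L52, the 1 SC ST array on slide 1, was at 10.53 and the other 3 at 11.65 to 11.97. The slide block gave a diet difference of 0.47 in FC (95% interval 0.08 to 0.86, adjusted p = 0.598) and -0.13 in ST (-0.40 to 0.14, adjusted p = 0.9998). Within slide 1, the 4 CM ST arrays averaged 0.02 above the SC ST array. When the slide was a random block in place of the mouse, the differences were 1.17 in FC (adjusted p = 0.00484) and -0.91 in ST (adjusted p = 0.0688). Slide and diet cannot be told apart in FC.

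**Figure D3:**
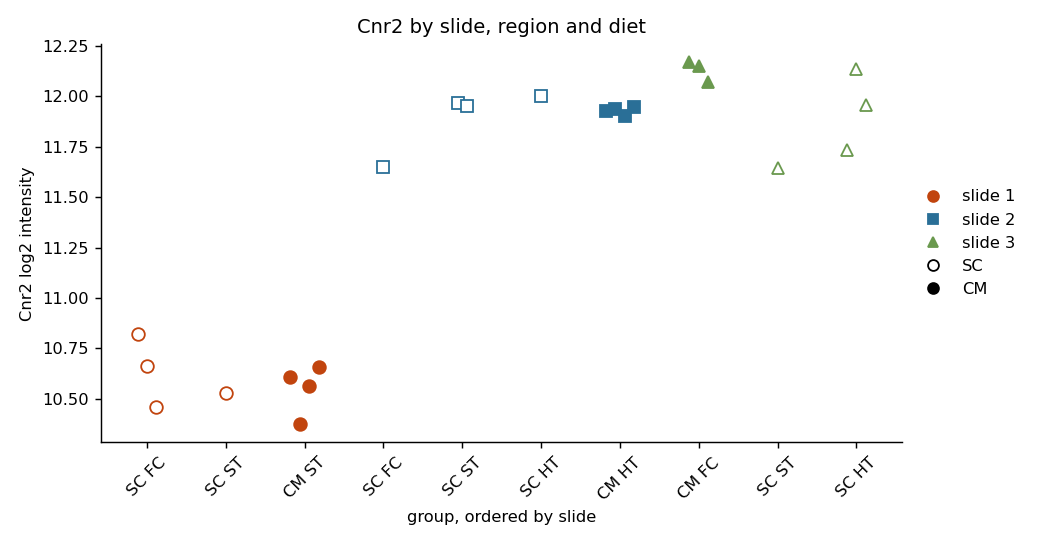
Log2 value of Cnr2 on the 23 arrays (y axis) by group of region and diet, ordered by slide (x axis). Open symbols are SC, filled symbols are CM, and the color and shape give the slide. All 8 arrays of slide 1 lie between 10.37 and 10.82 and the 15 arrays of slides 2 and 3 between 11.65 and 12.17, whatever the region or diet.

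Between regions, 4 differences of Cnr2 were called without the block. It was 1.21 ± 0.18 higher in HT than in FC in SC mice (adjusted p = 3.08e-05), 0.98 ± 0.21 higher in ST than in FC in SC mice (adjusted p = 0.0054), and 1.38 ± 0.13 higher in HT than in ST in CM mice (adjusted p = 2.31e-08). In CM mice it fell by 1.59 ± 0.13 from FC to ST (adjusted p = 1.24e-08). With the slide block these 4 differences were 0.29 (adjusted p = 0.332), 0.07 (adjusted p = 0.82), 0.19 (adjusted p = 0.396) and -0.53 (adjusted p = 0.138). The order of ST and FC was thus opposite in SC and CM mice without the block and neither difference was called with it. From FC to HT in CM mice Cnr2 differed by -0.21 ± 0.12 (adjusted p = 0.149) and, with the block, by -0.35 (adjusted p = 0.171). That difference was called with the slide as a random block (-0.32, adjusted p = 0.0419) and with only the compared arrays fitted (-0.21, adjusted p = 0.00883).

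None of the markers given here for the cells best known for Cnr2 separated slide 1 from the other slides without overlap. None of the 4 microglial markers (Aif1, Cx3cr1, Csf1r and P2ry12) was called for diet in any region. Their summed level (log2 of the sum of linear values) lay between 12.97 and 13.22 in SC FC, 13.05 and 13.18 in CM FC, 13.10 and 13.22 in SC ST, 13.28 and 13.41 in CM ST, 12.54 and 12.81 in SC HT and 12.62 and 12.81 in CM HT. In ST the summed level was thus higher in CM mice without overlap, whereas Cnr2 was lower in CM mice there. Aif1, which encodes the microglial protein Iba1, was between 11.22 and 11.74 on slide 1 and between 10.77 and 11.65 elsewhere, and Cx3cr1, a microglial chemokine receptor, between 11.28 and 11.77 on slide 1 and between 10.67 and 11.51 elsewhere, so the ranges overlapped. Csf1r was between 11.24 and 11.65 on slide 1 and between 11.11 and 11.70 elsewhere. P2ry12 was between 9.04 and 9.63 on slide 1 and between 8.55 and 9.64 elsewhere. Cd79a, a subunit of the B cell receptor complex, was well above background on 19 of the 23 arrays and was not called for diet in any region. It was between 4.66 and 5.48 on slide 1 and between 4.93 and 5.86 elsewhere, and these ranges overlapped too.

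Dagla, whose product DAGLα makes most 2-AG in the adult brain, was the second gene called for diet in FC. Its log2 values in FC were 11.76, 10.79, 11.47 and 11.03 on the SC arrays (L52, L54, L56 and L58) and 11.86, 12.07 and 11.85 on the CM arrays. In ST they were 10.87, 11.90, 11.50 and 11.14 on the SC arrays and 11.14, 11.06, 11.01 and 11.20 on the CM arrays. In HT they were 11.42, 11.64, 11.38 and 10.77 on the SC arrays and 11.80, 11.25, 11.21 and 11.49 on the CM arrays. Every CM FC array exceeded every SC FC array, the nearest being the L52 array on slide 2, and the diets overlapped in ST and HT. By slide, Dagla in FC averaged 11.10 on slide 1, 11.76 on slide 2 (L52 alone) and 11.93 on slide 3. In ST it averaged 11.06, 11.70 and 11.14 on slides 1, 2 and 3.

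Dagla was 0.71 ± 0.19 higher in the FC of CM mice (1.64-fold, adjusted p = 0.00929). Its diet effect in ST differed from that in FC by -1.098 ± 0.29 (adjusted p = 0.00774). Under the slide block the FC difference was 0.01 (95% interval -0.75 to 0.78, adjusted p = 0.999) and that between ST and FC 0.17, in the opposite direction (-0.91 to 1.24, adjusted p = 0.9999). The FC call was lost when the SC array of L54 (0.58, adjusted p = 0.059) or of L58 (0.55, adjusted p = 0.0501) was left out, without array weights (0.66, adjusted p = 0.0754) and with the slide as a random block (0.53, adjusted p = 0.213). Between regions, Dagla was called in CM mice, where it fell by 0.85 ± 0.15 from FC to ST (adjusted p = 8.04e-05) and fell by 0.56 ± 0.14 from FC to HT (adjusted p = 0.00212). In SC mice it differed by 0.25 and 0.12 in the same comparisons (adjusted p = 0.551 and 0.666). With the block neither CM difference was called (-0.13, adjusted p = 0.918, and -0.44, adjusted p = 0.425).

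Daglb, which encodes the second diacylglycerol lipase, known mainly from microglia and peripheral tissues, varied little. It ranged from 10.69 to 11.10 in FC, 10.30 to 10.78 in ST and 10.28 to 10.52 in HT. In FC the 4 SC arrays were between 10.74 and 11.10 and the 3 CM arrays between 10.69 and 10.88, and in ST the SC arrays between 10.30 and 10.697 and the CM arrays between 10.53 and 10.78. It fell by 0.54 ± 0.12 from FC to ST in SC mice (adjusted p = 0.00604; with the slide block -0.40, adjusted p = 0.0466) and by 0.55 ± 0.10 from FC to HT (adjusted p = 0.000245; with the block -0.41, adjusted p = 0.163). In CM mice it fell by 0.43 ± 0.07 from FC to HT (adjusted p = 2.15e-05) and fell by 0.31 ± 0.07 from ST to HT (adjusted p = 0.00119), and neither was called with the block. The diet differences of -0.19 in FC and 0.23 in ST did not pass the test (adjusted p = 0.135 and 0.166), but they differed from each other by 0.42 ± 0.14 (adjusted p = 0.0307; with the block 0.13, adjusted p = 0.9999). That call was lost without the ST array of L52, L56 or O54 or the FC array of L56 (0.22 to 0.40, highest adjusted p = 0.234), and also without array weights (0.33, adjusted p = 0.117), with only the compared arrays fitted (0.41, adjusted p = 0.0678), without the filter (0.40, adjusted p = 0.0565) and with the slide as a random block (0.37, adjusted p = 0.264). The ST difference was called without the SC array of L54 (0.34, adjusted p = 0.0136). Under median scaling both diet differences of Daglb were called, at -0.40 in FC (adjusted p = 0.00811) and 0.40 in ST (adjusted p = 0.0283), as was the difference between the HT and FC diet effects (0.46, adjusted p = 0.0195).

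Napepld, the N-acylethanolamine-forming phospholipase, ran opposite to Cnr1 and was highest in HT. Its log2 values in HT were 10.97, 11.04, 10.98 and 10.22 on the SC arrays (L52, L54, L56 and L58) and 11.51, 11.01, 10.97 and 11.37 on the CM arrays. In FC they were 10.23, 9.67, 10.08 and 9.89 on the SC arrays and 10.11, 10.13 and 10.06 on the CM arrays. In ST they were 9.80, 9.42, 9.49 and 8.94 on the SC arrays and 9.43, 9.45, 9.36 and 9.75 on the CM arrays. Apart from the SC HT array of L58, which lay at the level of the highest FC array, the HT arrays were at 10.97 or above and all others at 10.23 or below. That array also had the lowest Tcf7l2 of HT, at 10.48 against up to 12.88 (Tcf7l2 is a thalamic marker), and its part in the value was not tested.

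Napepld was 1.42 ± 0.20 higher in HT than in ST in SC mice (2.68-fold, adjusted p = 2.85e-05) and 1.69 ± 0.13 higher in CM mice (3.22-fold, adjusted p = 2.07e-09). With the slide block these were 1.39 (adjusted p = 0.00214) and 1.76 (adjusted p = 7.83e-05). Against FC, HT was 0.92 ± 0.19 higher in SC mice (adjusted p = 0.000585) and 1.05 ± 0.13 higher in CM mice (adjusted p = 6.28e-07), and with the block 0.88 (adjusted p = 0.088) and 1.15 (adjusted p = 0.0138). Within slide 2 the only SC pair, the HT array of L58 and the FC array of L52, differed by -0.01. In CM mice Napepld fell by 0.64 ± 0.14 from FC to ST (adjusted p = 0.000444; with the block -0.62, adjusted p = 0.396). The largest diet difference was in HT, 0.28 (95% interval -0.02 to 0.58), and did not pass the test (adjusted p = 0.417).

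Mgll, the main 2-AG hydrolase, was highest in FC and fell from FC to ST and on to HT. Its log2 values (transcript NM_001166251) in FC were 13.76, 13.59, 13.73 and 13.66 on the SC arrays (L52, L54, L56 and L58) and 13.76, 13.88 and 13.82 on the CM arrays. In ST they were 12.69, 13.51, 12.62 and 13.10 on the SC arrays and 12.999, 13.03, 13.04 and 12.67 on the CM arrays. In HT they were 12.25, 12.51, 12.16 and 11.67 on the SC arrays and 12.34, 11.94, 11.92 and 12.13 on the CM arrays. No ST array reached the FC range and no HT array reached the ST range, and the SC ST array of L54 came closest to FC.

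Mgll fell by 1.5 ± 0.18 from FC to HT in SC mice (2.83-fold, adjusted p = 2.44e-06) and by 1.78 ± 0.12 in CM mice (3.43-fold, adjusted p = 2.05e-10). With the slide block the differences were -1.95 (adjusted p = 0.000314) and -1.39 (adjusted p = 0.0018). From FC to ST it fell by 0.78 ± 0.21 in SC mice (adjusted p = 0.0173; with the block -0.92, adjusted p = 0.0057) and by 0.86 ± 0.13 in CM mice (adjusted p = 1.11e-05; with the block -0.32, adjusted p = 0.682). From ST to HT it fell by 0.72 ± 0.19 in SC mice (adjusted p = 0.00914) and by 0.92 ± 0.13 in CM mice (adjusted p = 3.76e-06), and both calls held with the block. The diet difference was 0.14 in FC (95% interval -0.20 to 0.48, adjusted p = 0.549), 0.06 in ST (-0.31 to 0.44, adjusted p = 0.868) and -0.14 in HT (-0.42 to 0.15, adjusted p = 0.729).

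The transcripts of Mgll gave the same order of regions. The transcript NM_001166250, taken over the other pair of probes, averaged 8.61 in FC, 8.17 in ST and 7.28 on the HT arrays. From FC to HT the probe A_55_P2063312 fell by 1.69 in SC mice and by 1.72 in CM mice, A_55_P2114863 by 1.53 and by 1.77, and A_55_P2063316 by 1.47 and by 1.79. The probe A_55_P2063311 fell by 0.79 (adjusted p = 0.0327) and by 1.13 (adjusted p = 6.17e-05), but it was well above background on only 11 of the 23 arrays, 1 of them of HT, so its level in HT is mostly a bound. From FC to ST in SC mice, A_55_P2063312, A_55_P2114863 and A_55_P2063316 were called at -0.85, -0.74 and -0.82, and A_55_P2063311 was not (-0.24, adjusted p = 0.697).

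**Figure D4:**
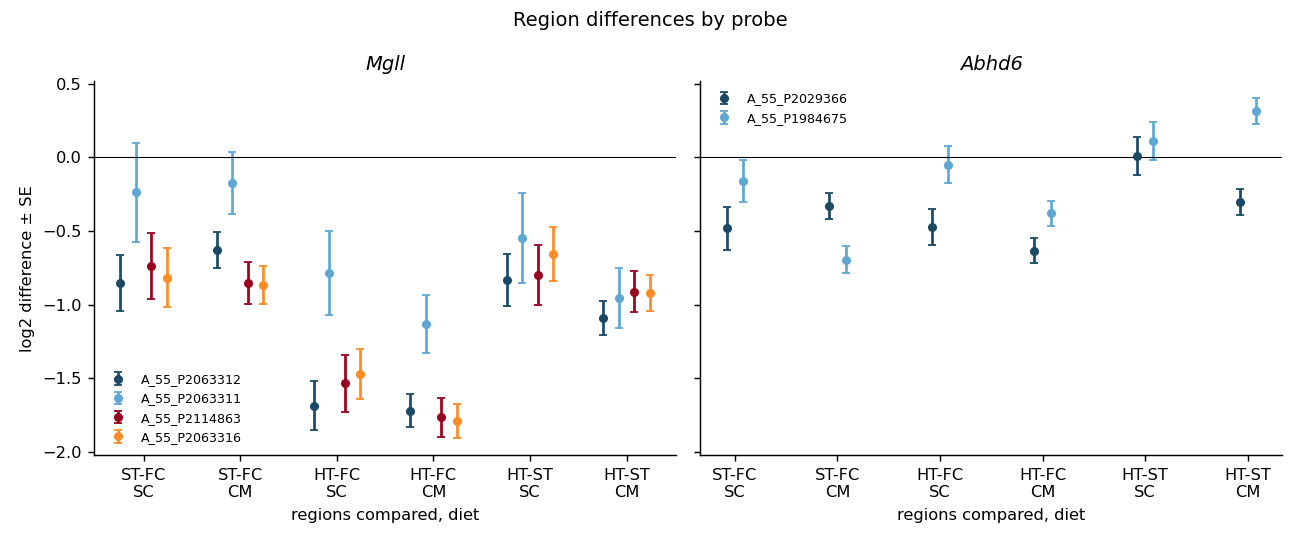
Log2 difference ± SE (y axis) of each of the 4 probes of Mgll and the 2 probes of Abhd6 in the regional comparisons within SC and CM mice (x axis). The Mgll probes lie on the same side of 0 in each comparison, whereas the Abhd6 probes lie at -0.30 and 0.32 for HT against ST in CM mice.

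Faah, the anandamide-degrading amidase, was highest in FC and lowest in ST. Its log2 values in FC were 9.43, 8.83, 9.21 and 9.03 on the SC arrays (L52, L54, L56 and L58) and 9.38, 9.36 and 9.21 on the CM arrays. In ST they were 7.98, 8.93, 7.50 and 8.30 on the SC arrays and 8.11, 8.11, 7.84 and 7.63 on the CM arrays. In HT they were 8.71, 8.53, 8.46 and 8.01 on the SC arrays and 8.86, 8.62, 8.27 and 8.63 on the CM arrays. The ST arrays were the most spread, and the SC ST array of L54 lay within the FC range.

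In CM mice Faah fell by 1.37 ± 0.17 from FC to ST (2.58-fold, adjusted p = 1.08e-06) and by 0.77 ± 0.16 from FC to HT (adjusted p = 0.000318). It was 0.60 ± 0.17 higher in HT than in ST (adjusted p = 0.00417), and none of these 3 differences was called with the slide block. In SC mice it fell by 1.097 ± 0.27 from FC to ST (adjusted p = 0.0116), which held with the block (-1.24, adjusted p = 0.00659), and by 0.65 ± 0.23 from FC to HT (adjusted p = 0.0293), which did not (-1.17, adjusted p = 0.0631). The latter call was also lost when any 1 of 4 arrays was left out (FC of L52 or L56, HT of L56 or L58; highest adjusted p = 0.0857). The diet difference of Faah was 0.21 in FC (adjusted p = 0.479), -0.06 in ST (adjusted p = 0.908) and 0.10 in HT (adjusted p = 0.872). The ST difference became -0.78 (adjusted p = 0.0217) without the SC array of L56.

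The SC ST differences of Faah and Mgll depended on which SC ST arrays were used, and both genes were higher on the ST arrays with more cortical marker signal. On the L54 array, Slc17a7 was at 11.68, Mgll at 13.51 and Faah at 8.93. On the L58 array they were at 12.05, 13.10 and 8.30. On the CM array of O58, with the lowest Slc17a7 (8.01) and the highest Ttr (18.21) of ST, Mgll was at 12.67 and Faah at 7.63. The L56 array had Slc17a7 at 9.05 with the lowest Mgll and Faah of ST, 12.62 and 7.50. The summed level of the 5 cortical markers was between 10.60 and 12.98 on the SC ST arrays, 9.34 and 12.01 on the CM ST arrays, 12.84 and 13.74 on the SC FC arrays and 13.31 and 13.51 on the CM FC arrays. The part of the cortical markers and of Ttr in the ST values was not tested. Without the ST array of O58 the numbers of genes called were the same in all 12 comparisons. Without the ST array of L56, the genes called in ST against FC of SC mice dropped from 5 to 1, and Faah (-0.37, adjusted p = 0.393), Mgll (-0.32, adjusted p = 0.383), Cnr1 and Daglb (-0.34, adjusted p = 0.101) were lost. Without that of L52 they dropped to 3, with Faah (-0.83, adjusted p = 0.0614) and Mgll (-0.59, adjusted p = 0.0813) lost. Leaving out the 3 SC ST arrays that stood apart (L52, L54 and L58) together was a choice made after seeing the data. It left the L56 array alone in SC ST, with no spread within that group, so only sizes are given. The L56 array had the thalamic marker Prkcd at 11.22, where the other SC ST arrays had 8.07 to 11.71. The CM ST arrays had Prkcd at 8.96 to 11.02, and its part in these sizes was not tested. From FC to ST, Faah then fell by 1.61, Mgll by 1.07 and Daglb by 0.68, while Cnr1 was 1.18 and Cnr2 1.203 higher in ST. For HT against ST, Mgll differed by -0.43 and Faah by 0.95 in that fit.

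**Figure D5:**
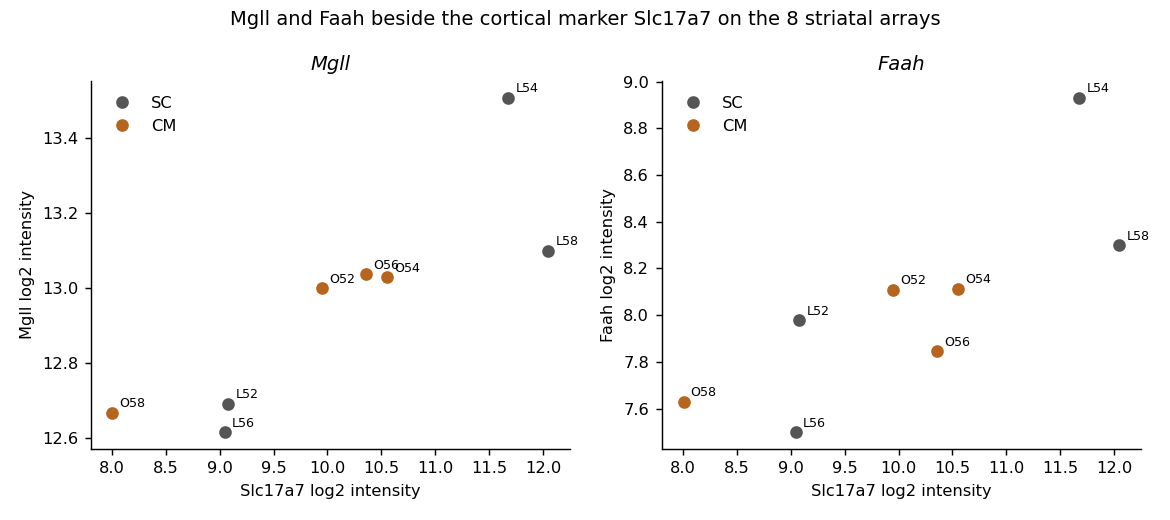
Log2 values of Mgll and Faah (y axes) against that of the cortical marker Slc17a7 (x axis) on the 8 ST arrays, with SC and CM arrays marked. The highest Mgll (13.51) and Faah (8.93) were on the SC array of L54, where Slc17a7 was 11.68, and the lowest (12.62 and 7.50) on that of L56, where it was 9.05.

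Abhd6, a second hydrolase of 2-AG, differed little between regions and its 2 probes gave different answers. It ranged from 9.99 to 10.46 in FC, 9.76 to 10.04 in ST and 9.52 to 10.09 in HT. In CM mice it fell by 0.51 ± 0.08 from FC to ST (adjusted p = 2.67e-05) and by 0.51 ± 0.08 from FC to HT (adjusted p = 1.31e-05), and neither was called with the slide block (-0.20, adjusted p = 0.694, and -0.25, adjusted p = 0.402). In SC mice the differences from FC, -0.32 in ST and -0.26 in HT, did not pass the test (adjusted p = 0.114 and 0.0739), and with the block the first was called (-0.40, adjusted p = 0.0458). Under median scaling both were called (-0.46, adjusted p = 0.0391, and -0.43, adjusted p = 0.00795), and the second was also called without array weights (-0.30, adjusted p = 0.0345) and with the processed signal (-0.34, adjusted p = 0.0238).

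For HT against ST in CM mice, the Abhd6 mean of both probes differed by 0.01 (adjusted p = 0.962). The probe A_55_P2029366 was lower in HT, at -0.30 ± 0.09 (adjusted p = 0.00642), and A_55_P1984675 was higher, at 0.32 ± 0.09 (adjusted p = 0.0051). In SC mice A_55_P2029366 fell by 0.47 from FC to HT (adjusted p = 0.00445), whereas A_55_P1984675 differed by -0.05 (adjusted p = 0.782). For diet in FC, A_55_P1984675 was called (0.33, adjusted p = 0.0332) and A_55_P2029366 was not (0.04, adjusted p = 0.801). The direction of Abhd6 between ST and HT, and its diet call in FC, therefore depend on the probe.

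Taking the 8 genes together for diet, limma called 2 in FC (Cnr2 and Dagla, both higher in CM mice), where 28.6% of all transcripts were called, 1 in ST (Cnr2, lower), where 9.82% were called, and 0 in HT, where 0.43% were called and none of the 8 had an unadjusted p under 0.05. The shares of the 8 genes called were thus close to those of all transcripts. The median diet difference of the 8 genes was 0.17 in FC against -0.04 for all transcripts, -0.03 in ST against 0.03 and -0.04 in HT against 0.01. The diet effects differed between ST and FC for 3 genes (Cnr2, Dagla and Daglb), where 30.1% of all transcripts were called, between HT and FC for 1 (Cnr2), where 20% were called, and between HT and ST for 0, where 0% were called and 2 genes had an unadjusted p under 0.05.

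The study asked for a change of 2-fold at an adjusted p below 0.01 in the cortex and striatum, and of 1.5-fold at an adjusted p below 0.05 in the hypothalamus. At these thresholds Cnr2 was the 1 gene called in FC (2.94% of all transcripts) and the 1 gene called in ST (0.602%), and 0 were called in HT (0.178%). Under the slide block 0 of the 8 genes were called for diet in FC (0% of all transcripts), ST (0%) and HT (0%), and 1, 0 and 0 had an unadjusted p under 0.05. Of all transcripts, 2219, 1408 and 845 had one. With the block, 0 genes were called for the differences of diet effects between ST and FC (0%), HT and FC (0%) and HT and ST (0%), with 1, 0 and 0 at an unadjusted p under 0.05. The block leaves FC diet differences to be estimated through the other regions.

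Some markers of several cell types were called for diet in FC as well, where 28.6% of all transcripts were called. Of the 3 astrocyte markers, Gfap (-0.90 ± 0.33, adjusted p = 0.045) and Aldh1l1 (-0.33 ± 0.09, adjusted p = 0.00949) were called lower in CM mice, and of the 4 markers of inhibitory neurons, Gad2 (-0.60 ± 0.21, adjusted p = 0.0391) and Slc32a1 (-0.57 ± 0.14, adjusted p = 0.00475). Of the 4 oligodendrocyte markers, Mbp was called higher (0.42 ± 0.15, adjusted p = 0.0433) and Mag lower (-0.92 ± 0.17, adjusted p = 0.000778). Of the 6 striatal markers, 1 was called (Drd2, -1.58 ± 0.51, adjusted p = 0.0258), with a median of -1.14 over the list. The 5 cortical, 8 hypothalamic, 4 thalamic, 4 microglial, 3 choroid plexus and 3 red blood cell markers had none called. In SC and CM FC, the summed levels were 13.27 to 13.97 and 13.42 to 13.52 for the astrocyte markers, 17.55 to 18.05 and 17.83 to 17.92 for those of inhibitory neurons, 16.36 to 17.42 and 16.42 to 16.71 for those of oligodendrocytes and 13.46 to 15.73 and 13.43 to 15.69 for the striatal ones, so the diets overlapped in each. With the slide block none of these markers was called, and their part in the FC values of Cnr2 and Dagla was not tested.

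Around these genes, 30 further genes of the pathway were listed, of which 27 were measured (Alox15, Gpr55 and Gpr18 were not in the table). They cover other routes to N-acylethanolamines, the phospholipases C that supply diacylglycerol, other hydrolases, oxidizing enzymes, carriers, further lipid receptors, CB1-binding proteins and G protein subunits. For diet, 0 were called higher and 4 lower in FC, where 28.6% of all transcripts were called. In ST 1 was called higher and 1 lower (9.82% of all transcripts), and in HT 0 were called (0.43%). None was called under the slide block (0% of all transcripts in each region). Abhd4, an N-acylphosphatidylethanolamine lipase on another route to anandamide, fell by 0.38 ± 0.10 in FC (adjusted p = 0.0104) and was 0.38 ± 0.11 higher in ST (adjusted p = 0.0424). Gdpd3, a lysophospholipase D, fell by 0.56 ± 0.16 in FC (adjusted p = 0.0141), and Plcb4, a phospholipase C, by 0.68 ± 0.18 in ST (adjusted p = 0.0253). With the block these differences were 0.38 for Abhd4 in FC and -0.09 in ST, which are opposite in direction, -0.17 for Gdpd3 and -0.98 for Plcb4. The diet effects differed between ST and FC for 4 of the 27, where 30.1% of all transcripts were called. They differed between HT and FC for 4 (20% of all transcripts) and between HT and ST for 0 (0%). In each of the 8 cases the interaction was positive, that is, the CM-SC difference in FC was the more negative one. Both contrasts use the same CM-SC difference of FC and both include Gdpd3 and Abhd4, so the cases are not independent. Between ST and FC the difference was 0.78 ± 0.25 for Gdpd3 (adjusted p = 0.0224; CM-SC -0.56 in FC and 0.21 in ST) and 0.75 ± 0.16 for Abhd4 (adjusted p = 0.00133). Between HT and FC it was 0.64 ± 0.22 for Gdpd3 (adjusted p = 0.0416) and 0.49 ± 0.14 for Abhd4 (adjusted p = 0.0169).

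Between regions within SC mice, the pathway genes called higher and lower were 0 and 5 in ST against FC (14.9% of all transcripts were called), 3 and 7 in HT against FC (43.2%) and 6 and 4 in HT against ST (21.5%). With the slide block they were 1 and 7 (10.9%), 3 and 5 (14.8%), and 4 and 2 (15%). Within CM mice they were 7 and 8 in ST against FC (60.6%), 8 and 9 in HT against FC (57.8%) and 8 and 6 in HT against ST (56.3%). With the block they were 0 and 2 (3.17%), 2 and 4 (16%), and 4 and 4 (19.4%).

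Ptgs2, the cyclooxygenase that oxidizes 2-AG and anandamide, fell from FC to ST by 1.55 ± 0.41 in SC mice (adjusted p = 0.0162) and by 1.80 ± 0.25 in CM mice (adjusted p = 5.26e-06), of which the CM difference was not called with the block (-1.46, adjusted p = 0.284). From FC to HT it fell by 2.24 ± 0.35 in SC mice (adjusted p = 4.58e-05) and by 3.20 ± 0.24 in CM mice (adjusted p = 6.59e-10), and from ST to HT by 1.41 ± 0.25 in CM mice (adjusted p = 7.02e-05). Pparg, a nuclear receptor for lipids, fell by 1.76 ± 0.19 from FC to HT in SC mice. In CM mice it fell by 2.05 ± 0.13 from FC to HT and fell by 1.81 ± 0.14 from FC to ST. Pla2g4e, an N-acyltransferase that makes the precursor of anandamide, fell by 1.38 ± 0.27 from FC to ST in SC mice (adjusted p = 0.00318). Plcb4 was higher in HT, by 1.38 ± 0.18 over FC and by 1.56 ± 0.20 over ST in SC mice and by 1.52 ± 0.12 and 2.24 ± 0.13 in CM mice. Plcb1, another phospholipase C, fell by 1.54 ± 0.16 from ST to HT in SC mice and by 1.65 ± 0.10 in CM mice, and Gnao1, a Go protein subunit, by 0.55 ± 0.10 in SC mice (adjusted p = 0.000255). The fatty acid-binding protein gene Fabp5 was 0.52 ± 0.08 higher in HT than in FC of SC mice (adjusted p = 2.82e-05). Apart from that of Ptgs2 from FC to ST in CM mice, each difference of these 7 genes given here was also called with the block (highest adjusted p = 0.0458, Pparg from FC to ST in CM mice).

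Other calls of the pathway depended on the block. Fabp7, a brain fatty acid-binding protein, was higher in HT than in ST by 1.29 ± 0.42 in SC mice (adjusted p = 0.0326) and by 1.198 ± 0.28 in CM mice (adjusted p = 0.0011), and with the block by 1.56 (adjusted p = 0.113, not called) and 1.698 (adjusted p = 0.046). Against FC it was 1.15 ± 0.27 higher in HT of CM mice (adjusted p = 0.000956; with the block 0.87, adjusted p = 0.472). In ST against FC of CM mice, Abhd4 was 0.71 ± 0.08 higher (adjusted p = 5.65e-07; with the block -0.10, adjusted p = 0.827) and Alox12, a lipoxygenase, 0.65 ± 0.19 higher (adjusted p = 0.00732; with the block 0.21, adjusted p = 0.887).

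Patterns over the 23 arrays were compared with those of 16181 transcripts of named genes well above background on every array, as a description, since the arrays share 8 mice, 3 regions and 3 slides. Cnr1 was most like Ppp1r9a (Pearson r = 0.977), Skil (0.970) and 1110012J17Rik (0.968), and Mgll most like Zdhhc8 (0.987), 2310046A06Rik (0.986) and St6gal2 (0.984). Faah was most like Wnt9a (0.980), Pamr1 (0.962) and 1700019N12Rik (0.960), and Napepld most like Osbpl5 (0.970), Kcnc2 (0.968) and Mreg (0.968). The nearest to Cnr2 were Pde4c (0.993), D5Wsu152e (0.991) and Plcd4 (0.989), each of which also separated slide 1 from the other slides without overlap. Daglb was most like Pih1d1 (0.957), Tada2a (0.941) and Galt (0.930), Abhd6 most like Rab33a (0.912), Spire1 (0.912) and Zfp296 (0.898), and Dagla most like Snrnp35 (0.879), Ola1 (0.869) and 1700081L11Rik (0.851), the last of which also separated slide 1. Among the 8 genes themselves, Cnr1 and Napepld ran opposite to each other (r = -0.88), and Faah ran with Abhd6 (0.84) and Mgll with Daglb (0.83).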

How the data were processed

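Total RNA of 3 brain regions was measured on 23 one-color (Cy3) Agilent arrays. Linear spot intensity values from the Feature Extraction software were deposited by the authors, together with their table of log2 values. They made the latter by normexp background correction (offset 0) and quantile normalization, then filtered the probes and averaged them per transcript. The filter kept probes that exceeded 1.1-fold the negative controls' 95th percentile on at least 4 arrays. The deposited log2 values were rebuilt from the scanner files to within 5e-09. Averaging merges the probes of a transcript, so values per probe name were also fitted.

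In R 4.3.3 with limma 3.58.1 and statmod 1.5.0, 6 group means were fitted to all 31395 transcripts with gene-by-gene array weights, a random block for the mouse (correlation -0.04) and empirical Bayes moderation. P-values were Benjamini-Hochberg adjusted over all transcripts, and differences called at an adjusted p under 0.05. Fitted differences weight the arrays (lowest weight 0.222, SC ST array of L58), so they are not differences of plain means. The mouse numbers do not pair SC with CM mice. Over 11 pairs with the same number, deviations from the group means correlated between -0.32 and 0.14, 3 of them over 0.1. Beyond the 8 genes, all named, the text names by rule the 2 largest called rises and falls per comparison of the pathway list and, for each gene, the 3 most similar transcripts. A gene with several transcripts is represented by its NM_ transcript with the highest mean. The genes and lists were chosen with earlier results of these data known. Each data processing step was tried with alternatives (slide and mouse blocks, weights, arrays fitted, spot signal, offset, scaling, filter, averaging, thresholds, each array left out). On simulated data the fit recovered 96.5% of 200 transcripts changed by a log2 of 1.5 for CM against SC in HT, with 7 false calls. The simulated noise was independent between arrays, without slide or mouse effects, and smaller changes were not simulated. The simulation therefore cannot show how the fit behaves when slide and group coincide. Precision is limited by the number of arrays. Sequences are the array's own probes, and probe coordinates are mm9. One marker gene is not reported here.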

Additional observations from a re-analysis of the deposited data

Results flagged for a closer look

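Some arrays lay far from the other 3 of their group. Of 45 groups of 4 arrays examined, 3 held such an array, where chance gives about 1 in 20. The CM ST array of O58 had Mgll at 12.67 against 12.999 to 13.04. The SC HT array of L58 had Napepld at 10.22 against 10.97 to 11.04 and Abhd6 at 9.52 against 9.99 to 10.05.

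The diet effects of some genes differed between regions by the interaction contrast of limma. For ST against FC, the difference was -2.57 for Cnr2, -1.098 for Dagla and 0.42 for Daglb, and for HT against FC it was -1.42 for Cnr2. None of the 4 was called with the slide as a fixed block.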

How the results depend on the processing

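The numbers of members called changed most with the slide. With the slide as a fixed block they were 0 for diet in FC and in ST (2 and 1 without it), 1 for HT against FC in SC mice (6 without), 0 for ST against FC, 3 for HT against FC and 3 for HT against ST in CM mice (7, 7 and 6 without), and 0 for the differences of diet effects of ST and FC and of HT and FC (3 and 1 without). With the slide as a random block they were 1 and 0 for diet in FC and ST and 1 for the ST and FC diet effects. Without array weights they were 1, 0, 1 and 0 for diet in FC and ST and for the ST and FC and the HT and FC diet effects. With only the compared arrays fitted they were 0 for diet in ST and 0 for ST against FC in SC mice, where all 5 genes lay at an adjusted p between 0.0603 and 0.0947. At the study's thresholds diet in FC gave 1, and at an adjusted p under 0.01 ST against FC in SC mice gave 2. Median scaling gave 2 for diet in ST and 2 for the HT and FC diet effects. For the HT and ST diet effects the count of 0 became 1 (Cnr2, adjusted p = 0.0503) under several alternatives. These were no replicate block (mouse), mouse as a fixed replicate block, REML weights, the compared arrays alone, mean spot signal and background offset. They also included processed signal, median scaling, the filter on well-above-background spots, values per probe name and values per gene name. With 3 SC striatal arrays left out, added after seeing the data, the Cnr2 difference was 1.36, with the L56 array alone in SC ST. That difference was -0.034 under the fixed slide block and 0.79 under the random one, called in neither. The causes were not tested.

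Leaving out 1 array gave 1 to 2 members for diet in FC, 1 to 2 in ST and 0 to 0 in HT. In SC mice it gave 1 to 6 for ST against FC, 5 to 6 for HT against FC and 3 to 4 for HT against ST. In CM mice it gave 7 to 7, 7 to 8 and 6 to 7. For the differences of diet effects it gave 2 to 3 (ST and FC), 1 to 2 (HT and FC) and 0 to 1 (HT and ST). Among uncalled differences, leaving out 1 array brought a call for Faah in the ST and FC diet effects (-1.0002, without the SC ST array of L56) and in HT against ST of SC mice (0.85, without that of L54), for Abhd6 in ST against FC of SC mice (-0.38, without that of L54), for Cnr2 in HT against FC of CM mice (-0.21, without SC ST L52), for Dagla in HT against ST of CM mice (0.42 and 0.44, without CM HT O54 or O56), for Dagla in the HT and FC diet effects (-0.70 to -0.86, without SC ST L52, SC FC L52 or L56, SC HT L58 or CM HT O52) and for Cnr2 in the HT and ST diet effects (1.15 to 1.32, without SC FC L52 or SC ST L52, L54 or L56). Reversed values were 0.17 for Dagla (ST and FC diet effects, slide as a fixed block), 0.023 for Cnr2 (diet in ST, within slide 1), -0.12 for Cnr2 (ST against FC in SC mice, within slide 1) and -0.0099 for Napepld (HT against FC in SC mice, within slide 2).

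The pairing by mouse number as a fixed replicate block changed 0 of 96 member calls. The mouse as a fixed replicate block changed 3 of 72, giving 2 for the HT and FC diet effects (Dagla -0.68, adjusted p = 0.0289). Median scaling moved the median of all transcripts to -0.17 for diet in FC and 0.14 in ST, and the share of calls that were higher in CM mice from 53.7% to 29.3% in FC and from 35.1% to 71.3% in ST. The share was 68.5% and 22.1% with the processed signal. No direction of a called gene reversed under either scaling.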
